A study of Homo sapiens with 6 samples.

Results

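The 10 genes described here are the 3 peroxisome proliferator-activated receptors, PPARA, PPARD and PPARG, and 7 genes of lipid handling that the receptors are known to control: ANGPTL4, PDK4, CPT1A, PLIN2, ACOT1, ACOT2 and FABP5. They were chosen by symbol from the 61806 genes of the deposited table, where all 10 were found, and all 10 had enough counts to be tested among the 15451 genes that passed the filter on low counts. RNA was sequenced from BEAS-2B, a human airway epithelial cell line immortalised in culture, in 3 control libraries and 3 libraries of cells treated with 15-KETE. The labels give no dose, time or vehicle. They do not state that replicates came from different cultures, and the p-values therefore reflect the spread among these libraries, which may be technical. As 1 cell line, BEAS-2B holds none of the other cell types of the airway.

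PPARs are nuclear receptors that bind fatty acids and their oxidised products, pair with a retinoid X receptor (RXR) and act on genes that hold a direct repeat of the AGGTCA half-site. PPARA is best known in liver for fatty acid oxidation during fasting, PPARG for lipid storage in adipocytes, and PPARD for fatty acid use in many tissues. 15-KETE (15-oxo-ETE) is made by oxidation of arachidonic acid, and such products are proposed PPARG ligands, which is the question that these genes bear on.

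The near-identity of ACOT1 and ACOT2, acyl-CoA thioesterases of the cytosol and of mitochondria that free fatty acids from coenzyme A, decides how their counts can be read, so their most different coding stretch is shown. Over the 1266 aligned coding bases in GENCODE release 29 the genes, both on chromosome 14, differed at 13 bases (98.97% identity), and ACOT2 had 186 further coding bases at its start. The stretch of 60 bases with the most differences held 4, which are in capitals, and runs from coding base 363 to 422 of ACOT1 and from 549 to 608 of ACOT2.
ACOT1: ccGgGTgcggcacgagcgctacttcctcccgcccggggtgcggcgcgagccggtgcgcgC
ACOT2: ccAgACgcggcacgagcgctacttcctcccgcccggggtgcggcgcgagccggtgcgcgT
Of the distinct 75-base windows in the coding transcripts of ACOT1, 41.6% were also found in ACOT2. FABP5 shared 27.1% of its windows with the pseudogene FABP5P7. For the other 7 genes at most 0.501% of the windows lay in another gene, a share reached by CPT1A.

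A direct-repeat element was looked for in the promoters because it is the site by which PPARs are known to act. RefSeq promoter windows (GRCh38.p14), each from 250 bases before to 50 bases after a transcript start, were used for 8 of the 10 genes (not ACOT1 or FABP5), in 15 windows. The motif searched, on both strands, was AGGTCA, any 1 base and AGGTCA again, and 0 of the 15 windows matched at least 10 of its 12 fixed letters, against 2.97% of the 35116 windows of all genes. The closest matches, with 9 letters, lay in PPARG and ACOT2, and 20.9% of all windows matched at least 9. The half-site AGGTCA alone, part of the longer motif, was in 3 windows, all of PPARG, and in 13.8% of all windows. The windows with the closest match are printed with that match in capitals; the PPARG window lies at chr3:12288810-12289109 on the plus strand with the match 62 to 50 bases before the start, and that of ACOT2 at chr14:73568963-73569262 on the plus strand with the match 52 to 40 bases before the start, read on the opposite strand. A second PPARG window, with a start 10 bases away, holds the same match.
PPARG: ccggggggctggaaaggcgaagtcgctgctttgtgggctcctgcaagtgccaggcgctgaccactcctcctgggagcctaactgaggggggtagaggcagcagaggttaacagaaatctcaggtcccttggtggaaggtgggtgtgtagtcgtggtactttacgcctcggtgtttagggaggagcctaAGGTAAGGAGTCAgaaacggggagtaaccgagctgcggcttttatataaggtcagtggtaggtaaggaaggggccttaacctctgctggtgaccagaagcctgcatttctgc
ACOT2: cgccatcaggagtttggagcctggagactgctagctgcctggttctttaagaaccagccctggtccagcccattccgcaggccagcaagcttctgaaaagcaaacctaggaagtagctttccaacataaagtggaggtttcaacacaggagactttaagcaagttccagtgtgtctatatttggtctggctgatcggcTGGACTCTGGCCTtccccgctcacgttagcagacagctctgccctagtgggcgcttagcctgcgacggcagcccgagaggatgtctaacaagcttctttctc
These matches describe letters in the windows and nothing was measured at them here. Elements further upstream, in introns or elsewhere lie outside these windows and were not looked for. With a match in 2.97% of all windows, 0 of 15 does not show that these genes lack the element.

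Libraries held 16844781 to 22876808 counts. Libraries with the same replicate number in the 2 groups resembled each other, and control replicate 2 stood apart: its median exonic length per count was 4777 bases against 5529 to 6118 in the other 5. The label of the cells was set against defining markers. All 7 epithelial markers were tested, with KRT7 at 519 to 2077 CPM (counts scaled to a common library size, after TMM, a scaling that evens out library composition). KRT8 had 226 to 687 and KRT18 210 to 738 CPM. The others were low: EPCAM at 0.747 to 2.97, KRT19 at 0.868 to 2.00, CDH1 at 2.69 to 6.68 and KRT5 at 3.92 to 9.78 CPM. The summed level of the 7, mostly KRT7, KRT8 and KRT18, was 1139 to 3522 CPM in control and 999 to 2176 in 15-KETE libraries. Of 5 adipocyte markers, ADIPOQ and LEP had 0 counts in all libraries, and the 5 summed to at most 0.922 CPM. Sums of leukocyte markers, mostly CD14, were 6.19 to 15.7 CPM in control and 5.91 to 14.9 in 15-KETE libraries, those of endothelial markers, mostly KDR, 8.38 to 11.97 and 9.35 to 13.9, and those of fibroblast markers, mostly COL1A1, 26.8 to 32.6 and 24.3 to 34.3.

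Among the receptors PPARD had the highest level per length and, by exonic gene size, PPARG the lowest. FPKM, the count scaled to exonic gene size and to the library total, were 13.31, 5.55 and 8.24 for PPARD in control replicates 1, 2 and 3, and 13.13, 9.95 and 9.13 in 15-KETE replicates 1, 2 and 3. In the same order PPARA had 6.68, 1.67 and 5.12 FPKM in control and 7.55, 5.22 and 5.51 in 15-KETE libraries. PPARG had 1.07, 0.64 and 0.55 FPKM in control and 0.97, 0.69 and 0.56 in 15-KETE libraries. On this scale PPARD exceeded PPARA, and PPARA exceeded PPARG, in each of the 6 libraries. Exonic gene size joins all annotated exons, 11981 bases for PPARG, where the longest coding transcript has 2029. With the longest coding transcript in its place, PPARD was above PPARA in all 6 libraries and PPARA above PPARG in 5; in control replicate 2 PPARG was higher, at 3.801 against 2.205 FPKM.

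By exonic gene size PPARG made up 5.08%, 8.14% and 3.95% of the summed receptor FPKM in control replicates 1, 2 and 3 and 4.48%, 4.35% and 3.68% in the 15-KETE replicates. The highest share was that of control replicate 2, the library in which PPARA was lowest. The mean difference in share, 15-KETE minus control, was -1.55 points (5.73% ± 2.17 in control and 4.17% ± 0.427 in 15-KETE, SD, n = 3 each). It was within the spread (exact two-sided permutation test, p = 0.3, where the smallest possible p is 0.1). Without control replicate 2, but with its same-numbered 15-KETE library kept, it was -0.346 points. In every same-numbered pair the 15-KETE library had the lower share, with differences of -0.60, -3.79 and -0.27 points. The share depends on the length used: with the longest coding transcript, an alternative chosen after the data were seen, it was 22.4% ± 7.05 in control and 17.2% ± 1.51 in 15-KETE libraries (SD, n = 3 each), a difference of -5.23 points (exact two-sided permutation test, p = 0.3).

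The order of all 10 genes ran from PLIN2, a lipid droplet coat protein (13.98 ± 2.95 FPKM, SD over the 6 libraries), through the fatty acid carrier FABP5 (12.5 ± 6.10), PPARD (9.89 ± 2.98), CPT1A (8.28 ± 1.92), PPARA (5.29 ± 2.01), ACOT2 (3.76 ± 0.999), ANGPTL4 (3.30 ± 1.76) and ACOT1 (2.14 ± 0.803) to PDK4 (0.905 ± 0.307) and PPARG (0.747 ± 0.220). Of neighbours in this order, the ranges over the 6 libraries were apart only for ACOT1 and PDK4, and the upper gene was higher in all 6 libraries also for CPT1A over PPARA. PPARD and CPT1A, and ACOT2 and ANGPTL4, changed places in 3 of 6 libraries. ACOT1, ACOT2 and FABP5 share sequence with another gene, and how shared reads were counted is not known, which bears on their places. The length used bears on the place of PPARG: with the longest coding transcript PPARG had 4.41 ± 1.29 FPKM and stood at rank 7 in place of 10. PPARD stayed above PPARA on that scale, with 11.7 ± 3.52 against 6.998 ± 2.66.

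**Figure D1:**
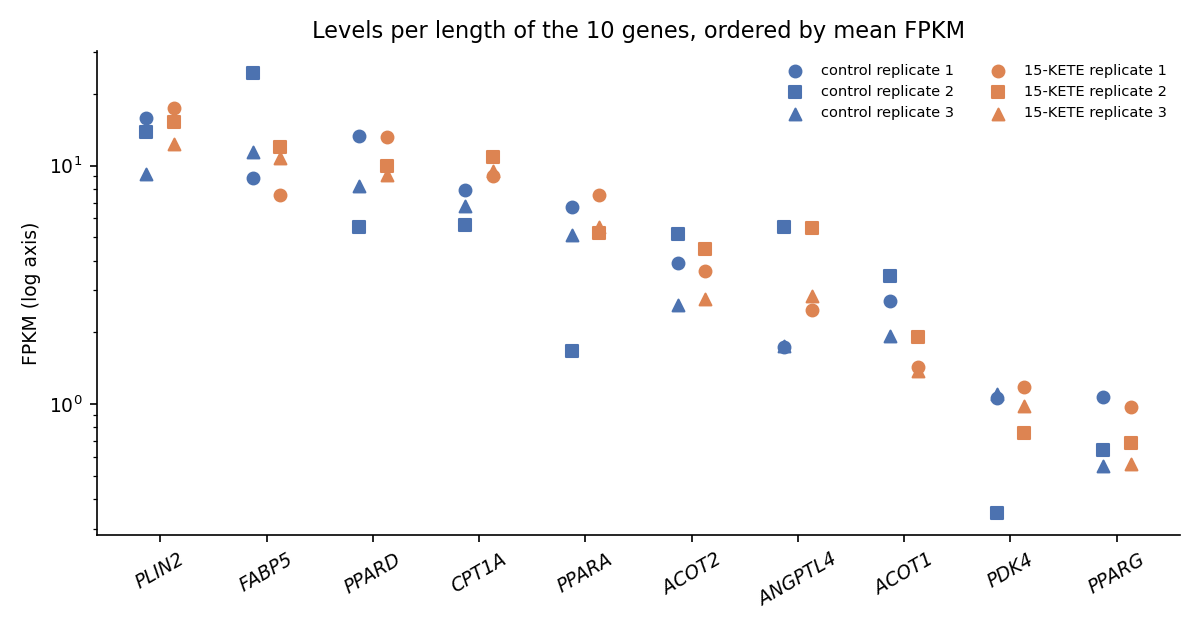
FPKM of the 10 genes in each library on a log axis, ordered by the mean over the 6 libraries; blue is control, orange is 15-KETE, and the marker shape gives the replicate number. PPARG and PDK4 lie at the bottom, near 1 FPKM, and control replicate 2 lies apart from the other libraries for PPARA (1.67), PDK4 (0.35) and FABP5 (24.47).

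The comparison of 15-KETE with control asked whether these transcripts differ after treatment. None of the 10 genes passed edgeR's quasi-likelihood test (0 of 10, against 0.0% of the 15451 genes tested, and again 0.0% when a block for replicate number was added), with an adjusted p of 0.9996 for each and of 0.695 to 0.872 with the block. Log2 fold changes, 15-KETE over control, were above 0 for 6 genes and below 0 for 4, with a median of 0.11 (0.20 with the block) against -0.0018 (0.0026) over all genes tested. At an unadjusted p below 0.05 there was 1 of the 10 without the block, ACOT1, where 0.162% of all genes had one, and 4 with it, ACOT1, CPT1A, FABP5 and PPARA, where 4.71% had one. The difference had the same direction in all 3 same-numbered pairs for those 4 genes (29.1% of all genes). A small p in the blocked fit favours such agreement, so it is not separate support. The groups did not overlap for 1 gene, CPT1A (2.3% of all genes). For 7 of the 10 genes the blocked 95% interval excluded differences above 2-fold either way, and without the block for 3. In these bulk samples fewer cells expressing a gene and less RNA per cell cannot be told apart.

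**Figure D2:**
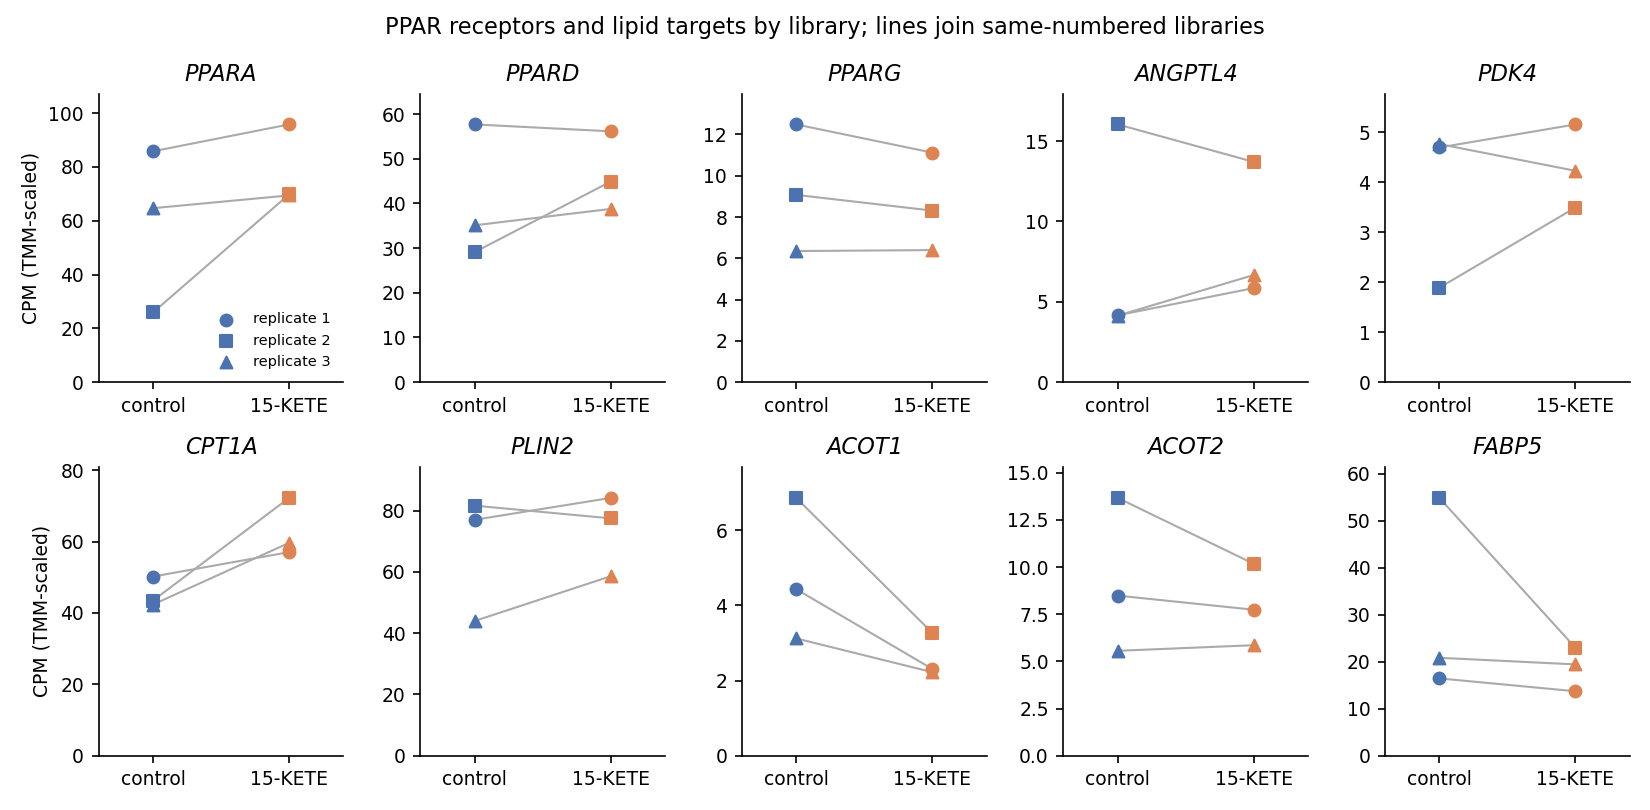
TMM-scaled CPM of each gene (vertical axes start at 0) in control and 15-KETE libraries, with a line joining libraries of the same replicate number. The groups are apart for CPT1A, from 42.4 to 50.2 CPM in control and from 57.1 to 72.3 in 15-KETE, and overlap for the other 9 genes.

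Of the receptors, PPARA (ENSG00000186951, chromosome 22, 46150521 to 46243755) had 85.8, 25.9 and 64.7 CPM in control replicates 1, 2 and 3 and 95.8, 69.8 and 69.4 in 15-KETE replicates. Control replicate 2 was far below the other 5 libraries, and the remaining control values lay at or near the 15-KETE values. The log2 fold change was 0.41 ± 0.41 (SE) and, with the block, 0.55 ± 0.24 (edgeR adjusted p = 0.695). The differences within pairs were 0.16, 1.42 and 0.10 on the log2 scale. Without control replicate 2, with its same-numbered 15-KETE library kept and no block, the log2 fold change was 0.06. Without the whole replicate 2 pair, in the blocked fit, it was 0.12.

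PPARD (ENSG00000112033, chromosome 6, 35342558 to 35428191) had 57.7, 29.1 and 35.1 CPM in control and 56.1, 44.9 and 38.8 in 15-KETE replicates 1 to 3. Both replicate 1 libraries were the highest, and the log2 fold change was 0.20 ± 0.31 (SE). It was 0.0073 without control replicate 2 alone and, in the blocked fit, 0.04 without the replicate 2 pair. PPARG (ENSG00000132170, chromosome 3, 12287368 to 12434356), the receptor for which 15-KETE-like lipids are proposed ligands, had 12.5, 9.07 and 6.35 CPM in control and 11.1, 8.31 and 6.40 in 15-KETE replicates. Both replicate 1 libraries were the highest and both replicate 3 libraries the lowest, so that the groups overlapped and levels were close within each pair (differences of -0.17, -0.12 and 0.01 on the log2 scale). The fold change of PPARG was 0.935 with the block, and its 95% interval ran from 0.699 to 1.25.

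Of the genes for mitochondrial fuel use, CPT1A (ENSG00000110090, chromosome 11, 68754620 to 68844410), the enzyme by which long-chain fatty acids enter mitochondria, was the one member whose groups were apart. It had 50.2, 43.5 and 42.4 CPM in control replicates 1 to 3 and 57.1, 72.3 and 59.7 in 15-KETE replicates. Every 15-KETE library was above every control library, control replicate 2 did not stand out, and the differences within pairs were 0.18, 0.73 and 0.49 on the log2 scale. The log2 fold change was 0.47 ± 0.24 (SE; 45.4 ± 4.25 CPM in control and 63.0 ± 8.13 in 15-KETE, SD, n = 3 each; edgeR adjusted p = 0.9996). With the block it was 0.47 ± 0.17 (edgeR adjusted p = 0.695), a 1.39-fold difference with a 95% interval from 1.07 to 1.80. Leaving out each library in turn gave 0.36 to 0.57, and 0.45 without control replicate 2. By unadjusted p CPT1A ranked 60 of the 15451 genes without the block and 100 with it.

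PDK4 (ENSG00000004799, chromosome 7, 95583499 to 95596516), a kinase that shuts off pyruvate dehydrogenase and so favours fat over glucose as fuel, did not show the pattern of CPT1A. It had 4.70, 1.89 and 4.76 CPM in control and 5.16, 3.49 and 4.23 in 15-KETE replicates 1 to 3. The low value was that of control replicate 2. The log2 fold change of 0.18 ± 0.41 (SE) was -0.14 without that library alone. In the blocked fit it was -0.0215 without the replicate 2 pair. The gene rested on 460 counts over the 6 libraries, and the antisense gene PDK4-AS1 had 7.

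ANGPTL4 (ENSG00000167772, chromosome 19, 8363289 to 8374370), a secreted inhibitor of lipoprotein lipase that is among the most responsive PPAR targets in many cells, varied with the replicate number. It had 4.16, 16.0 and 4.14 CPM in control replicates 1 to 3 and 5.86, 13.7 and 6.67 in 15-KETE replicates. Both replicate 2 libraries were at least 2 times as high as each of the other 4, and within pairs the 15-KETE library was higher in replicates 1 and 3, by 0.48 and 0.67 on the log2 scale, and lower in replicate 2, with a difference of -0.23. The log2 fold change was 0.11 ± 0.57 (SE), and 0.28 with the block, where its 95% interval ran from -0.22 to 0.78. Leaving out 1 library, with its same-numbered partner kept and no block, moved the log2 fold change. It was 1.08 without control replicate 2 (edgeR adjusted p = 0.9999) and -0.38 without 15-KETE replicate 2. It was -0.18 without control replicate 1 and -0.17 without control replicate 3. Leaving out a whole same-numbered pair in the blocked fit gave 0.12 to 0.58.

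PLIN2 (ENSG00000147872, chromosome 9, 19108375 to 19149290), which coats lipid droplets and whose level follows stored lipid in many cells, had 77.0, 81.6 and 44.0 CPM in control and 84.1, 77.5 and 58.6 in 15-KETE replicates 1 to 3. Both replicate 3 libraries were the lowest, and the groups overlapped. The log2 fold change was 0.12 ± 0.30 (SE) and -0.0882 without control replicate 3 alone. In the blocked fit it was 0.047 without the replicate 3 pair. With the block the fold was 1.11, with a 95% interval from 0.864 to 1.43.

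The thioesterase ACOT1 (ENSG00000184227, chromosome 14, 73537143 to 73543796) had the largest fold change of the 10, downward. It had 4.43, 6.86 and 3.12 CPM in control replicates 1 to 3 and 2.31, 3.27 and 2.22 in 15-KETE replicates. The groups overlapped by 1 library each, 15-KETE replicate 2 lying just above control replicate 3, while each 15-KETE library was below its same-numbered control, by -0.91, -1.04 and -0.47 on the log2 scale. The log2 fold change was -0.88 ± 0.39 (SE; edgeR adjusted p = 0.9996), and -0.85 ± 0.25 with the block (edgeR adjusted p = 0.695), a fold of 0.556 with a 95% interval from 0.380 to 0.814. It was -0.53 without control replicate 2 alone, in the fit with no block, and -0.73 in the blocked fit without the replicate 2 pair. ACOT1 rested on 423 counts, and HEATR4, which overlaps it on the opposite strand, had 98. The sources used here do not state whether strand was used, so reads of both cannot be told apart.

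ACOT2 (ENSG00000119673, chromosome 14, 73567620 to 73575658) had 8.49, 13.7 and 5.56 CPM in control and 7.74, 10.2 and 5.86 in 15-KETE replicates 1 to 3. Its log2 fold change was -0.22 ± 0.38 (SE). Without control replicate 2, with its same-numbered 15-KETE library kept and no block, it was 0.18. Without the whole replicate 2 pair, in the blocked fit, it was -0.05. The order of libraries within each group was that of ACOT1. Summed, ACOT1 and ACOT2 had 12.9, 20.5 and 8.68 CPM in control and 10.05, 13.4 and 8.08 in 15-KETE replicates. Their sum does not depend on the split of shared reads if each was counted once, but how such reads were counted is not known. The sum was lower in each pair, with log2 differences of -0.36, -0.61 and -0.10 in pairs 1, 2 and 3. Its mean log2 difference of -0.36 (mean log2 CPM 3.72 ± 0.62 in control and 3.36 ± 0.37 in 15-KETE, SD, n = 3 each) was within the spread (exact two-sided permutation test, p = 0.5). That test does not use the pairing. Without control replicate 2, but with its same-numbered 15-KETE library kept, the difference was -0.04.

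The split between both thioesterase genes set the groups apart more than their sum did. ACOT1 took 34.3%, 33.4% and 35.9% of the summed counts in control replicates 1 to 3 and 23.0%, 24.3% and 27.5% in 15-KETE replicates. All 3 control libraries were above all 3 15-KETE libraries, and control replicate 2 lay among the other controls. The difference was -9.60 points (24.95% ± 2.32 in 15-KETE and 34.6% ± 1.28 in control, SD, n = 3 each; exact two-sided permutation test, p = 0.1, the smallest this design can give), and -8.63 to -10.9 points on leaving out each library in turn. This share was looked at after the values of ACOT1 and ACOT2 were seen. It counts reads as the deposited table assigns them, and the share of reads common to both genes is not known. Whether reads of HEATR4, which overlaps ACOT1 on the opposite strand (98 counts against 423 of ACOT1), entered the ACOT1 counts is not known either.

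**Figure D3:**
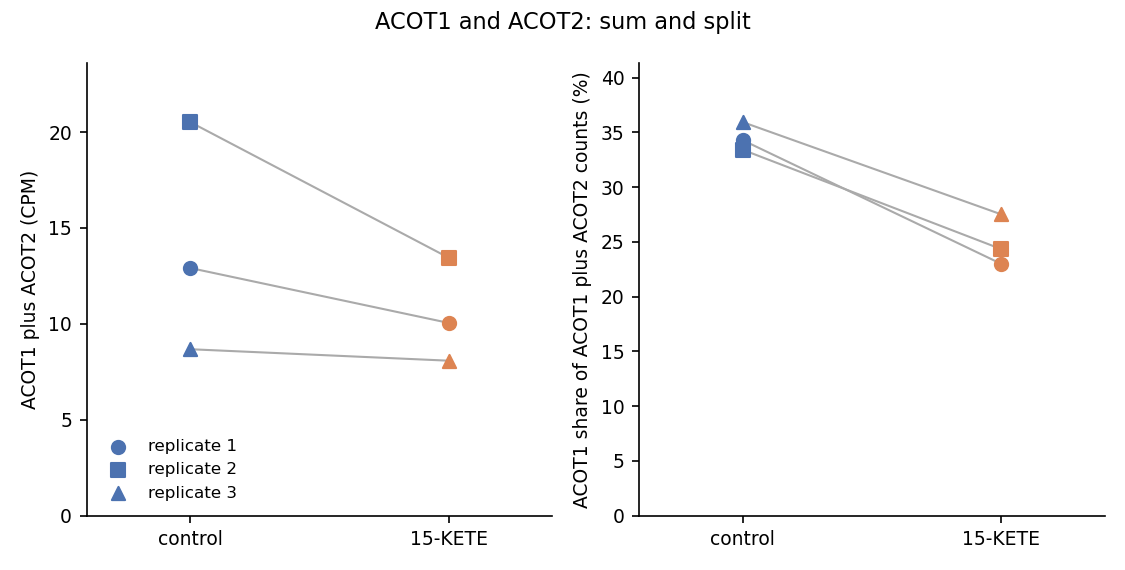
Summed CPM of ACOT1 and ACOT2 (left) and the percentage of their summed counts assigned to ACOT1 (right), both from 0, with lines joining same-numbered libraries. The sums overlap between the groups, while the ACOT1 share lies between 33.4% and 35.9% in control and between 23.0% and 27.5% in 15-KETE libraries.

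FABP5 (ENSG00000164687, chromosome 8, 81280536 to 81284777), which carries fatty acids and is known to deliver ligands to PPARD, had 16.4, 54.8 and 20.8 CPM in control replicates 1 to 3 and 13.7, 23.0 and 19.4 in 15-KETE replicates. Control replicate 2 was more than 2 times as high as any other library, and the other 5 values overlapped. The log2 fold change was -0.72 ± 0.45 (SE), and -0.55 ± 0.22 with the block (edgeR adjusted p = 0.695), with differences of -0.26, -1.25 and -0.10 within pairs. Without control replicate 2 alone, in the fit with no block, it was 0.0085. Without the replicate 2 pair, in the blocked fit, it was -0.19. FABP5P7 had 3.10, 11.02 and 3.74 CPM in control and 3.01, 4.997 and 4.01 in 15-KETE replicates, and FABP5 took 83.3% to 84.8% of the counts of both in control and 82.0% to 82.9% in 15-KETE libraries. As for the ACOT1 share, the groups did not overlap and each pair had the lower share in 15-KETE: the difference was -1.73 points (82.3% ± 0.474 in 15-KETE and 84.1% ± 0.751 in control, SD, n = 3 each; exact two-sided permutation test, p = 0.1, the smallest possible). This share was also looked at after the values were seen. It rested on 56 to 204 counts of FABP5P7 per library, and its counting error was not estimated. The difference was far smaller than that of the ACOT1 share, and reads of FABP5 and FABP5P7 may be shared.

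FABP5 had the widest range of the 10 over the 6 libraries, 1.99 on the log2 scale. The 3 genes most like it, by the root mean square difference of mean-centred log2 CPM over the 6 libraries among 13886 genes with a mean of at least 1 CPM, were the mitochondrial ribosomal protein MRPL47 (0.0830), FABP5P7 (0.104) and the dynein light chain DYNLL1 (0.109). In MRPL47 too the highest library was control replicate 2, at 132 CPM against 39.1 to 60.6 in the other 5. FABP5P7 has an exonic size of 405 bases and holds 27.1% of the 75-base windows of FABP5. Reads of both may be shared, so its likeness to FABP5 does not stand as a separate result.

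**Figure D4:**
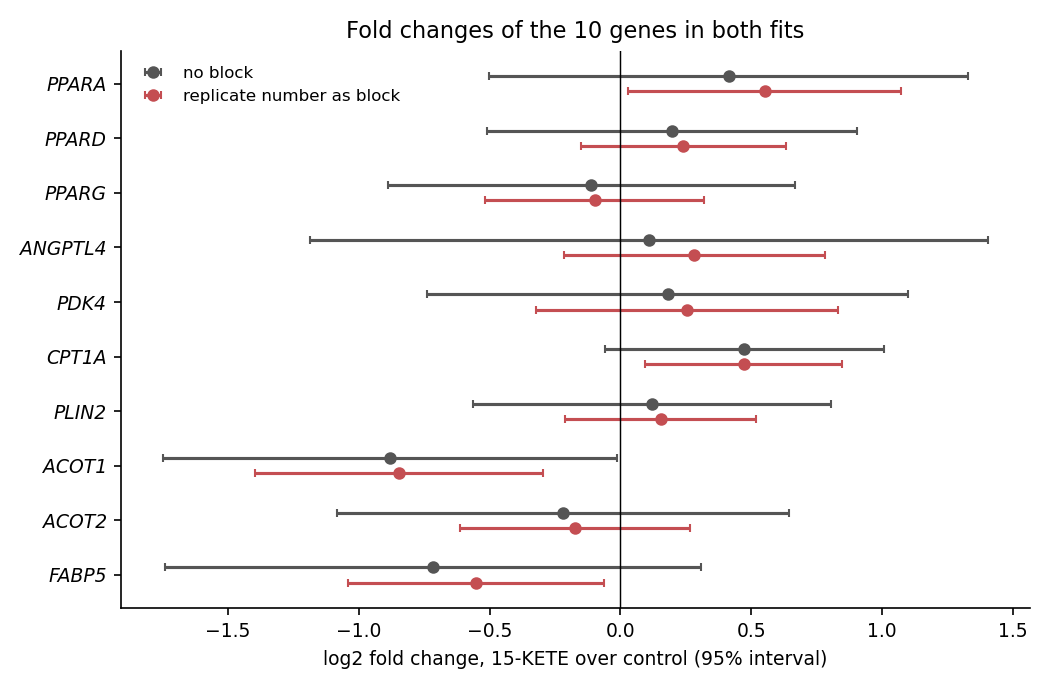
Log2 fold changes of the 10 genes, 15-KETE over control, with 95% intervals from edgeR without a block (grey) and with a block for replicate number (red). The blocked intervals lie to 1 side of 0 for PPARA, CPT1A, ACOT1 and FABP5, for which the adjusted p was 0.695; without the replicate 2 pair the fold changes were 0.12, 0.33, -0.73 and -0.19.

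Control replicate 2 was the highest library for 4 of the 10 genes and the lowest for 3, and these genes differed in exonic length. The 4 genes under 2500 bases, ANGPTL4, ACOT1, ACOT2 and FABP5, were all highest there, 0.88 to 1.57 above the mean of the other 5 libraries on the log2 scale, and among all 3225 tested genes of that length 55.1% were highest there (median deviation 0.57). Of the 2 genes over 10000 bases PPARA deviated by -1.55 and was lowest there, as were 65.3% of the 2200 tested genes of that length (median -0.63), whereas PPARG deviated by 0.08. Of the 4 genes between, PPARD (-0.65) and PDK4 (-1.18) were lowest there, and CPT1A (-0.35) and PLIN2 (0.30) were not at either end. With a smooth trend on exonic length taken from each library, with no block, the log2 fold change was 0.41 for CPT1A, -0.71 for ACOT1, 0.31 for PPARA and -0.50 for FABP5. It moved by more than 1.5 times for PPARG, from -0.11 to -0.32, for ANGPTL4, from 0.11 to 0.30, and for ACOT2, from -0.22 to -0.06, and stayed at 0.20 for PPARD, 0.18 for PDK4 and 0.10 against 0.12 for PLIN2.

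**Figure D5:**
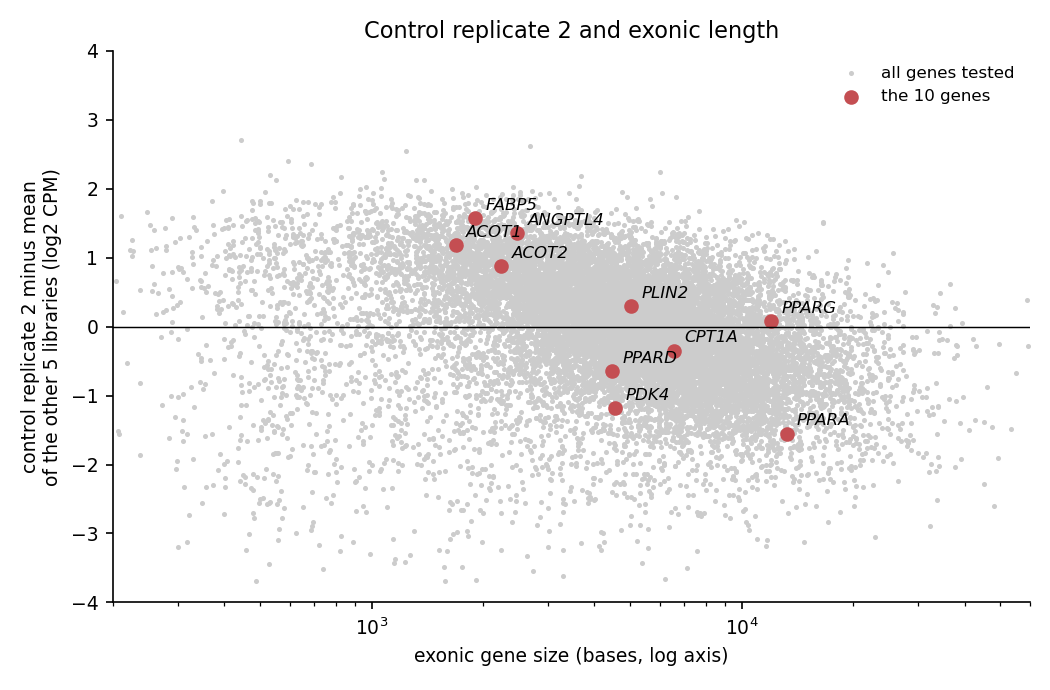
Deviation of control replicate 2 from the mean of the other 5 libraries (log2 CPM) against exonic gene size (log axis) for all genes tested (grey) and the 10 genes (red). Short genes tend to lie above 0 and long genes below, with many exceptions. FABP5 lies at 1.57 and PPARA at -1.55, while PPARG, also a long gene, lies at 0.08.

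The wider pathway was described with lists of partners and coregulators, fatty acid oxidation, lipid uptake and storage, and paralogs of the 10 genes, 95 genes in all, of which 69 were tested and 0 passed (edgeR, with and without the block). Of 17 tested partners and coregulators 14 had a log2 fold change above 0, with a median of 0.27 against -0.0018 over all genes. They were long genes, with a median exonic size of 11689 bases against 4892 over all genes, 12 of the 17 were lowest in control replicate 2, and the medians within pairs were 0.15, 0.74 and 0.03; the part of that library in the result was not tested. The acetyltransferase EP300 had 95.7 ± 52.3 CPM in control and 133 ± 21.9 in 15-KETE libraries (SD, n = 3 each), a log2 fold change of 0.48, and the corepressor subunit TBL1X had a log2 fold change of 0.26. At an unadjusted p below 0.05 in the blocked fit, where 4.71% of all genes lay, were 3 of the 17, EP300 (log2 fold change 0.64), the Mediator subunit MED1 (0.54) and the corepressor NCOR1 (0.57), the last chosen after its value was seen. Each was lowest in control replicate 2, and the pair with that library differed most: within pairs 1, 2 and 3 the log2 differences were 0.15, 1.66 and 0.16 for EP300. They were 0.16, 1.42 and 0.06 for MED1 and 0.20, 1.501 and 0.04 for NCOR1. By level, HDAC3, the deacetylase of the corepressor complex, had 31.1 FPKM and MED1 18.8, as means over the 6 libraries. Of the RXR partners RXRB had 15.1 and RXRA 5.71 FPKM, also chosen after their values were seen, and RXRG had 0 counts.

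Of 25 tested fatty acid oxidation genes 11 lay above 0 (median -0.02). The members of smallest p were the mitochondrial enzymes DECR1 (log2 fold change -0.35), ETFA (-0.39) and ECI1 (-0.43), each highest in control replicate 2. The most abundant, HADHA (59.9 FPKM) and ACADVL (48.2), both of long-chain fatty acid oxidation, had log2 fold changes of -0.07 and 0.13. ACADL, a long-chain acyl-CoA dehydrogenase, had 3 counts over the 6 libraries.

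Of 28 lipid uptake and storage genes 16 were tested and 9 lay above 0 (median 0.02). G0S2, an inhibitor of the triglyceride lipase PNPLA2, had 16.2, 24.3 and 12.03 CPM in control replicates 1 to 3 and 11.9, 12.1 and 10.5 in 15-KETE replicates. It was lower in each pair, with a log2 fold change of -0.60 ± 0.31 (SE) and, with the block, -0.55 ± 0.20 (edgeR adjusted p = 0.695). AGPAT2 and DGAT2, which build triglyceride, had -0.40 and -0.57, the latter at 1.02 CPM in control and 0.690 in 15-KETE libraries. Some adipocyte targets of PPARG in this list were near or at 0. FABP4 had 1 count, CD36 4 and CIDEC 3 over the 6 libraries, and ADIPOQ, CIDEA, AQP7 and PCK1 had 0. The highest levels in the list were those of AGPAT2 and G0S2, at 16.7 and 16.2 FPKM as means over the 6 libraries.

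Of the paralogs 15 of 28 were tested and 8 lay above 0 (median 0.02). The thioesterases ACOT9 (log2 fold change -0.35), ACOT7 (-0.40) and ACOT13 (-0.31) had the smallest p, and each was highest in control replicate 2. By exonic gene size ACOT7, at 32.6 FPKM, exceeded ACOT1 (2.14) and ACOT2 (3.76). How reads common to ACOT1 and ACOT2 were counted is not known, which bears on their levels. On the same scale the droplet coat protein PLIN3, at 27.4 FPKM, exceeded PLIN2 (13.98). With its longest coding transcript, 1972 bases against an exonic gene size of 5011, PLIN2 had 35.5 FPKM. PLIN3 was not recomputed in this way, so the order of PLIN2 and PLIN3 is not settled. The kinases PDK1, PDK2 and PDK3 had 1.44, 4.03 and 1.895 FPKM against 0.905 for PDK4. The deposited table itself annotates 120 genes, many of them pseudogenes, to the PPAR signalling pathway, 7 of the 10 genes among them; of the other 113, 43 were tested, 25 of these lay above 0 (median 0.04), 0 passed, and 7 had the same direction in all 3 pairs (16.3%, against 29.1% of all genes).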

How the data were processed

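RNA from 6 BEAS-2B samples was prepared for sequencing with a SMARTer library kit for mRNA, per the labels' protocols. Per the submitters' processing notes, which give neither order nor use, the tools included HTSeq 0.6.1, HISAT2 2.2.1, cutadapt 1.9.1, StringTie 1.3.3b, edgeR 3.4.6, SAMtools 0.1.19, Cuffdiff and Cufflinks 2.2.1, DESeq 1.18.0 and DESeq2 1.6.3. The authors deposited 1 table with raw counts per gene and library, per the file headers. Its FPKM values, also deposited by the authors, were within 0.01 of count, exonic gene size and library total recomputed for 100% of values. Genome build, strand and read length are not given in the sources used here; gene coordinates are those of the table, and all 10 genes overlap their GENCODE release 29 (GRCh38) positions.

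Counts were tested with edgeR 4.0.16 in R 4.3.3: filterByExpr by group (15451 genes), TMM scaling, robust quasi-likelihood test over all 6 libraries, Benjamini-Hochberg adjustment over all genes tested, threshold 0.05. CPM use the same scaling. SE and 95% intervals come from that fit. The script was tested on simulated counts.

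The groups share replicate numbers in the titles. Deviations from group means correlated at 0.570, 0.646 and 0.722 between same-numbered libraries, and the numbers were therefore treated as pairing libraries, although their meaning is not labelled. No libraries were identical or agreed within sampling noise (chi-square per gene at least 2.39).

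The members and lists were chosen with earlier results of these data known. The rule for naming other genes took, in each list, the 3 of smallest p and the 2 of highest FPKM, and for the member of widest range the 3 genes most like it. Alternatives were DESeq2 1.42.0, limma 3.58.1 (voom, and trend on log2(FPKM + 1)), other scalings and filters, the block, a length trend (mgcv 1.9.3), transcript in place of exonic gene length, and leaving out libraries or pairs. Some genes that this rule or the lists hold are not reported here. The study's other genes were not described.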

Additional observations from a re-analysis of the deposited data

How the results depend on the processing

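For the 10 genes, 19 alternative settings gave 190 log2 fold changes, of which 180 kept their direction and 10 changed it. Of these 10 changes, 9 came on leaving out a single library, which keeps its same-numbered partner in the fit. The other was that of PDK4 without the replicate 2 pair. The smallest adjusted p among the 190 was 0.214 (edgeR with the block, without replicate 3). With DESeq2, limma-voom, limma-trend on FPKM, other scalings, other filters, the length trend and the replicate block, 0 genes were called. Unadjusted p below 0.05 was found for 25 genes in edgeR, 31 in DESeq2, 35 in limma-voom and 80 in limma-trend. There were 450 with no filter on low counts and 727 with the block. With the block and the length trend together 3 of the 10 genes had one, in place of 4 with the block alone. PPARA no longer did (edgeR unadjusted p = 0.0696).

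With the replicate block the median log2 fold change of the 10 genes was 0.20 against 0.11 without it, and the block changed no call. Leaving out a same-numbered pair in the blocked fit gave 0 to 12 called genes, 1 without replicate 1 and 12 without replicate 3, none of them among the 10 or the lists, and moved PDK4 between -0.0215 (without replicate 2) and 0.50. Without the replicate 2 pair the blocked log2 fold change went from 0.55 to 0.12 for PPARA and from -0.55 to -0.19 for FABP5, neither with an unadjusted p below 0.05 any longer, from 0.47 to 0.33 for CPT1A, from -0.85 to -0.73 for ACOT1 and from 0.28 to 0.58 for ANGPTL4, which was 0.12 without replicate 3. Over the 3 pairs, the sign permutation gave p = 0.25 for both the ACOT1 plus ACOT2 sum and the PPARG share, the smallest it can give.

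Leaving out 1 library at a time ranged from -0.33 to 0.17 for PPARG, -0.38 to 1.08 for ANGPTL4, -0.14 to 0.40 for PDK4, -0.0882 to 0.28 for PLIN2, -0.46 to 0.18 for ACOT2 and -0.99 to 0.0085 for FABP5, as log2 fold changes that changed sign. PPARA (0.06 to 0.79), PPARD (0.0073 to 0.55), CPT1A (0.36 to 0.57) and ACOT1 (-1.09 to -0.53) kept theirs. The cause was not tested. The PPARG share differed by -2.99 points in counts in place of FPKM and by -5.23 points with the longest coding transcript, against -1.55. At 423 to 1027 counts over 6 libraries, ACOT1, PDK4, ANGPTL4, ACOT2 and PPARG are the least precisely counted of the 10.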
